A study of Mus musculus with 9 samples.

Results

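The receptors for interferons, the transcription factor Stat2 and the sensors of foreign or misplaced nucleic acid were followed in CD11b+ bone marrow cells. They comprised 9 genes, chosen by symbol, of the 23337 genes counted: the receptor chains Ifnar1, Ifnar2 and Ifngr1, Stat2, the RNA sensors Ddx58, Ifih1 and Dhx58, the Z-nucleic acid sensor Zbp1, and Tmem173, the adaptor of cytosolic DNA sensing that is also called STING. All 9 passed the filter on low counts that left 12553 genes for testing. The male C57BL/6 mice of the study were between 3 and 6 weeks old, and each of 3 groups held 3 mice with 1 library per mouse. The PBS group received vehicle by tail vein (100 µl) on days 1, 3 and 5. The EnzR EV group received extracellular vesicles on those days, each injection with 10 µg of EV protein, from a human prostate cancer line (CWR-R1) made resistant to enzalutamide; the sample labels call these vesicles exosomes. The EnzR EV + HDL NP group received the same vesicles and, on days 0, 2 and 4, HDL NPs, nanoparticles that mimic high-density lipoprotein, at 1 µM by the sample labels, while the methods of the study state another dose. No group analysed here received HDL NPs without vesicles, so an effect of the nanoparticles alone cannot be told apart from one of the combination. The mice bore no tumour in this experiment, and marrow was taken 24 h after the final injection.

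Type I interferons bind a receptor built of Ifnar1 and Ifnar2, and the kinases Jak1 and Tyk2 on its inner side phosphorylate STAT factors, among them Stat2, which acts with Irf9 in the complex ISGF3. ISGF3 binds the interferon-stimulated response element, or ISRE, and switches on a large set of antiviral genes. Type II interferon acts through Ifngr1 and Ifngr2 and leads to binding at the GAS element. Ddx58 (RIG-I) and Ifih1 (MDA5) detect double-stranded RNA in the cytoplasm and signal to type I interferon genes. Dhx58 (LGP2) modulates both, Zbp1 recognises nucleic acid in the Z form, and Tmem173 relays the signal of cGAS. Stat2 and the RNA sensors, like Zbp1, are well known as genes that interferon itself induces, whereas the receptor chains are expressed on most cells at all times.

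The promoters of the genes are shown because these response elements are where the pathway acts on its own components. Promoters of 6 of the 9 members were in the RefSeq set used here (GRCm38.p6, 250 bases before the gene start and 50 from it onward). The ISRE was searched as GAAA, any 2 bases and GAAA, and the GAS element as TTCNNNGAA, each on both strands. Stat2, Ddx58 and Ifih1 held an ISRE match, Ifnar1 and Ifnar2 held a GAS match, and the window of Ifngr1 held neither. No window held both motifs. Of all 32851 promoters of the same length, 3.44% held the ISRE letters and 8.30% the GAS letters. Windows of 30 bases around the matches read as follows, 5′ to 3′ on the strand of the gene, with the match in capitals.
Stat2 (ISRE): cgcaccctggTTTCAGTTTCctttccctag
Ddx58 (ISRE): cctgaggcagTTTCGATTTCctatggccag
Ifih1 (ISRE): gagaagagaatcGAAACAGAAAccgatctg
Ifnar1 (GAS): gggcgggggcgTTCACGGAAggggcggggc
Ifnar2 (GAS): ctgccaaggccTTCCTGGAAgaagagagta

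The match of Stat2 began 222 bases before the gene start (window chr10:128270266-128270295, plus strand). The match of Ddx58 began at base 3 of the gene (chr4:40239804-40239833, minus strand) and that of Ifih1 at base 33 (chr2:62646206-62646235, minus strand), counting the first base of the RefSeq gene as 1. The GAS match of Ifnar1 lay across its gene start (chr16:91485199-91485228, plus strand), and that of Ifnar2 lay 214 bases before the start (chr16:91372558-91372587, plus strand). A match of letters describes the window and does not show that a factor binds there. The whole 250 bases upstream of Stat2 (chr10:128270248-128270497, plus strand) are given as the surroundings of the one ISRE match among these that lies wholly before a gene.
Stat2 upstream: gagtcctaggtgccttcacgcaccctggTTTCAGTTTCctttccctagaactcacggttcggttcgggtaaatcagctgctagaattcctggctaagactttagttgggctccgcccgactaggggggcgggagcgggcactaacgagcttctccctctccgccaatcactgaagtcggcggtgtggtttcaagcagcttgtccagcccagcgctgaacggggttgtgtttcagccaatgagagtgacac

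The libraries differed in depth and in ribosomal RNA, and these values stand beside every result on the PBS and EnzR EV groups. Totals ran from 2575776 counts in EnzR EV replicate 1 to 18110561 in EnzR EV replicate 2. Rn45s, the ribosomal RNA precursor, took 42.7% of the counts in EnzR EV replicate 1, 20.3% in PBS replicate 1, 14.2% in EnzR EV replicate 3 and at most 2.87% in the other 6 libraries. In EnzR EV replicate 1 the members rested on between 16 counts (Zbp1) and 724 counts (Ifngr1). Of the marker lists for myeloid cells, all 8 neutrophil and all 7 monocyte genes were tested. The summed neutrophil level lay between 38555 and 94948 CPM in PBS, 18906 and 104288 in EnzR EV, and 63243 and 126240 in EnzR EV + HDL NP. The summed monocyte level lay between 5454 and 13948 CPM over all 9 libraries. Markers of B cells, T and NK cells and erythroid cells summed to at most 63.5 CPM in any library. The erythroid sum holds no globin counts, since its only globin gene, Hba-a1, had 0 counts in all 9 libraries. Markers of platelets summed to at most 99.9 CPM and those of macrophages to between 492 and 1108. EnzR EV replicate 1 had both the lowest neutrophil and the lowest monocyte sum. In bulk samples such as these, a smaller share of cells that express a gene cannot be told apart from less RNA of that gene per cell.

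Levels below are TMM-scaled CPM, counts relative to library size after the trimmed-mean scaling of edgeR, which are suited to comparing mice but not genes. Divided by exon length for that purpose, the PBS mice had most Ifngr1, at 75.9 ± 6.69 CPM per kb (SD, n = 3), then Ifnar2 (34.6 ± 0.826) and Ifnar1 (18.9 ± 0.487). These receptor chains did not overlap with each other or with any other member in the PBS mice. Below them came Ddx58 (13.8 ± 3.06 CPM per kb), Tmem173 (11.1 ± 1.10), Dhx58 (8.99 ± 1.38), Stat2 (7.61 ± 0.934), Ifih1 (6.28 ± 2.12) and Zbp1 (4.51 ± 1.27), and each of these overlapped in range with its neighbour in the order. The lengths come from GENCODE M21 and the counts from another annotation, so this order is approximate.

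**Figure D1:**
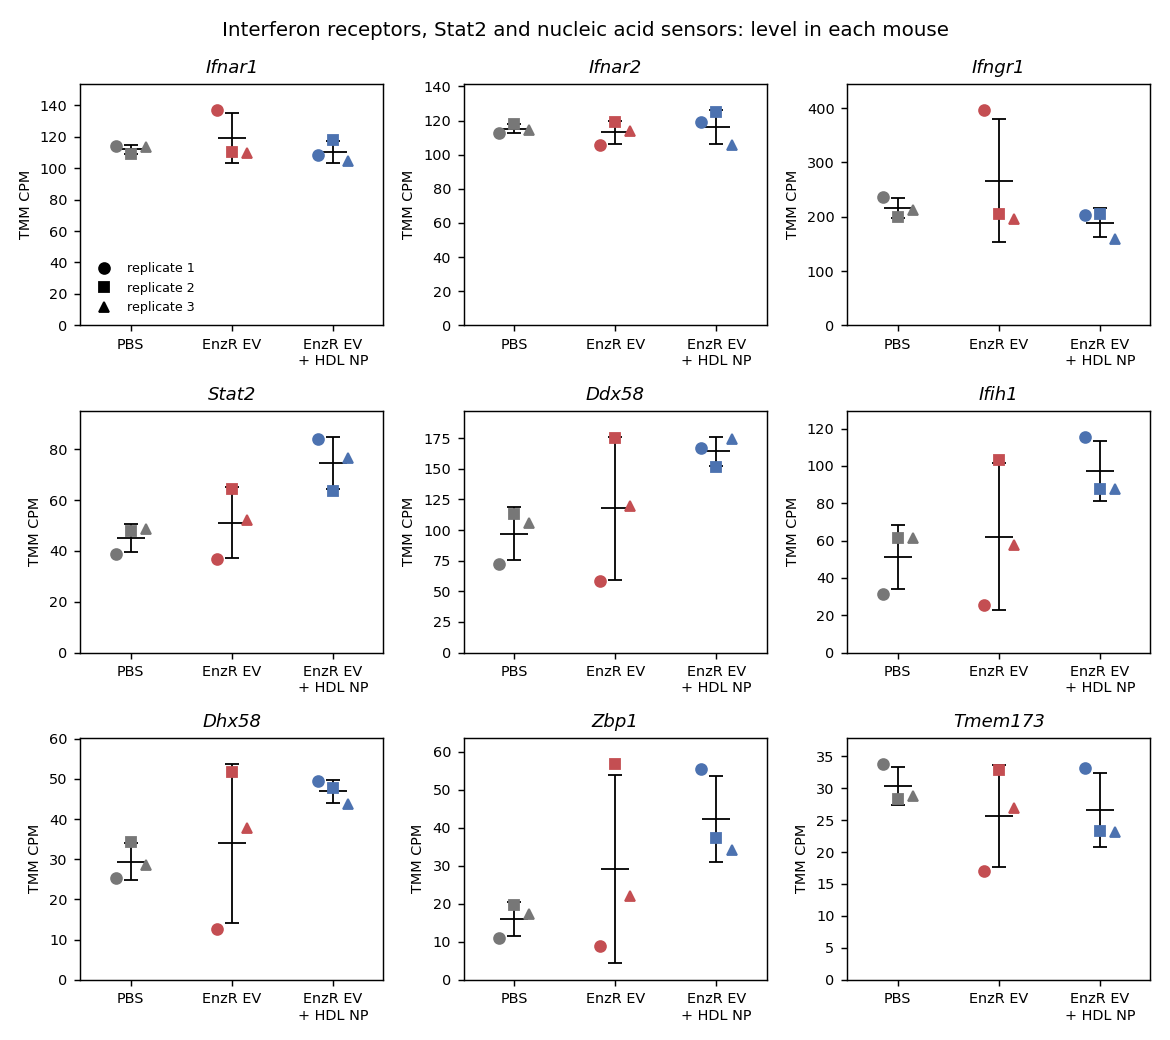
TMM-scaled CPM (vertical axes, each starting at 0) of the 9 members in each of the 9 mice, by group, with the marker shape giving the replicate number and the bar the mean ± SD of 3 mice. For Stat2, Ddx58, Ifih1, Dhx58 and Zbp1 all 3 EnzR EV + HDL NP mice lie above all 3 PBS mice, while the EnzR EV mice spread from below the PBS mice to above them.

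The receptor chains came first. Ifnar1 (chr16:91485238-91507441), the chain of the type I receptor that carries Tyk2, stood at 114, 109 and 114 CPM in PBS replicates 1, 2 and 3, at 137, 110 and 110 in the EnzR EV mice and at 108, 118 and 104 in the EnzR EV + HDL NP mice. Ifnar2 (chr16:91372783-91405589), the chain that binds the ligand most tightly and carries Jak1, stood at 113, 118 and 115 CPM in the PBS mice, 106, 119 and 114 in the EnzR EV mice and 119, 125 and 106 in the EnzR EV + HDL NP mice. The groups overlapped for both chains in every comparison, and their coefficients of variation in the PBS mice were only 2.58% and 2.39%. The log2 fold change of the EnzR EV + HDL NP group against PBS was -0.03 for Ifnar1 (95% interval -0.35 to 0.30) and 0.02 for Ifnar2 (-0.29 to 0.33). Against PBS the EnzR EV group differed by 0.08 for Ifnar1 (-0.25 to 0.41) and by -0.02 for Ifnar2 (-0.34 to 0.29). All 4 intervals include 0. Ifnar2 shares its locus and strand with the gene model Gm21970, and reads of the overlap may be assigned to neither.

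Ifngr1 (chr10:19591949-19610229), the ligand-binding chain of the type II receptor, stood at 237, 199 and 212 CPM in the PBS mice. It reached 397, 205 and 196 CPM in the EnzR EV mice and 203, 206 and 159 in the EnzR EV + HDL NP mice. The level of 397 in EnzR EV replicate 1, the shallowest library, was the single high value, and all groups overlapped. The EnzR EV group differed from PBS by a log2 fold change of 0.30 (95% interval -0.28 to 0.87), and by -0.10 once that mouse was left out. The EnzR EV + HDL NP group differed from PBS by -0.19 (-0.76 to 0.38) and from the EnzR EV group by -0.48 (-1.06 to 0.09). Over 19 alternatives, left-out libraries among them, the difference from the EnzR EV group ranged from -0.67 to -0.093. None of these differences passed the test.

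Stat2 (chr10:128270559-128292849), the STAT of ISGF3, stood at 38.7, 47.8 and 48.7 CPM in the PBS mice and at 36.8, 64.4 and 52.1 in the EnzR EV mice. In the EnzR EV + HDL NP mice it stood at 83.9, 63.6 and 76.5 CPM. All 3 mice given HDL NPs with the vesicles lay above all 3 PBS mice, whereas the EnzR EV mice reached from below the lowest PBS mouse to above the highest. The means were 45.1 ± 5.53, 51.1 ± 13.9 and 74.7 ± 10.3 CPM (SD, n = 3) in this order of groups, and the last was 1.65 times the first in the fit. This log2 fold change of 0.72 (SE 0.215, 95% interval 0.25 to 1.20) ranked 36 by p among the 12553 genes in the edgeR test and had an adjusted p of 1.00.

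Ddx58 (chr4:40203773-40239828), the RNA sensor RIG-I, stood at 72.5, 113 and 105 CPM in the PBS mice. Its levels were 58.2, 175 and 120 CPM in the EnzR EV mice and 167, 151 and 175 in the EnzR EV + HDL NP mice. The latter group lay wholly above PBS, by a log2 fold change of 0.76 (SE 0.324, 95% interval 0.04 to 1.47, edgeR adjusted p = 1.00). The EnzR EV mice spread to both sides of the PBS mice, with a coefficient of variation of 49.8%.

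Ifih1 (chr2:62595798-62646255), the RNA sensor MDA5, stood at 31.3, 61.3 and 61.2 CPM in the PBS mice. It stood at 25.2, 103 and 57.8 CPM in the EnzR EV mice and at 116, 87.8 and 87.9 in the EnzR EV + HDL NP mice. Here too the group given HDL NPs lay above every PBS mouse, with a log2 fold change of 0.91 (SE 0.413, 95% interval -0.0012 to 1.83, edgeR adjusted p = 1.00).

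Dhx58 (chr11:100694884-100704271), which lacks the signalling domains of the other RNA sensors, stood at 25.3, 34.3 and 28.7 CPM in the PBS mice. Its levels were 12.6, 51.6 and 37.7 CPM in the EnzR EV mice and 49.4, 47.7 and 43.7 in the EnzR EV + HDL NP mice. The mice given HDL NPs formed the tightest of the groups, with a coefficient of variation of 6.18% against 15.4% in PBS and 58.2% in EnzR EV, and lay above all PBS mice. The log2 fold change against PBS was 0.67 (SE 0.352, 95% interval -0.11 to 1.45, edgeR adjusted p = 1.00). An antisense gene, Dhx58os, overlaps this locus, and the strand setting of the counting is not given in the sources used here, so reads of the antisense gene may be included.

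Zbp1 (chr2:173206612-173218923), a sensor that can start inflammatory cell death, stood at 10.9, 19.6 and 17.3 CPM in the PBS mice. It stood at 8.78, 56.8 and 22.0 CPM in the EnzR EV mice and at 55.4, 37.4 and 34.2 in the EnzR EV + HDL NP mice. Zbp1 had the largest difference of the 9 members: the group given HDL NPs lay wholly above PBS by a log2 fold change of 1.39 (SE 0.493, 95% interval 0.30 to 2.49), 2.63 times, with an edgeR adjusted p of 1.00. In the EnzR EV group the log2 fold change was 0.94 (-0.15 to 2.04, edgeR adjusted p = 0.928), and its coefficient of variation was 85.0%.

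Tmem173 (chr18:35733679-35740554) stood at 33.8, 28.4 and 28.8 CPM in the PBS mice. Its levels were 17.0, 32.9 and 27.0 CPM in the EnzR EV mice and 33.2, 23.2 and 23.1 in the EnzR EV + HDL NP mice. Unlike the RNA sensors and Zbp1, Tmem173 overlapped between groups in all comparisons, and its log2 fold change was -0.20 (95% interval -0.74 to 0.35) for EnzR EV and -0.19 (-0.72 to 0.34) for EnzR EV + HDL NP, each against PBS. The value for EnzR EV was -0.0062 without EnzR EV replicate 1 and -0.39 without EnzR EV replicate 2.

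**Figure D2:**
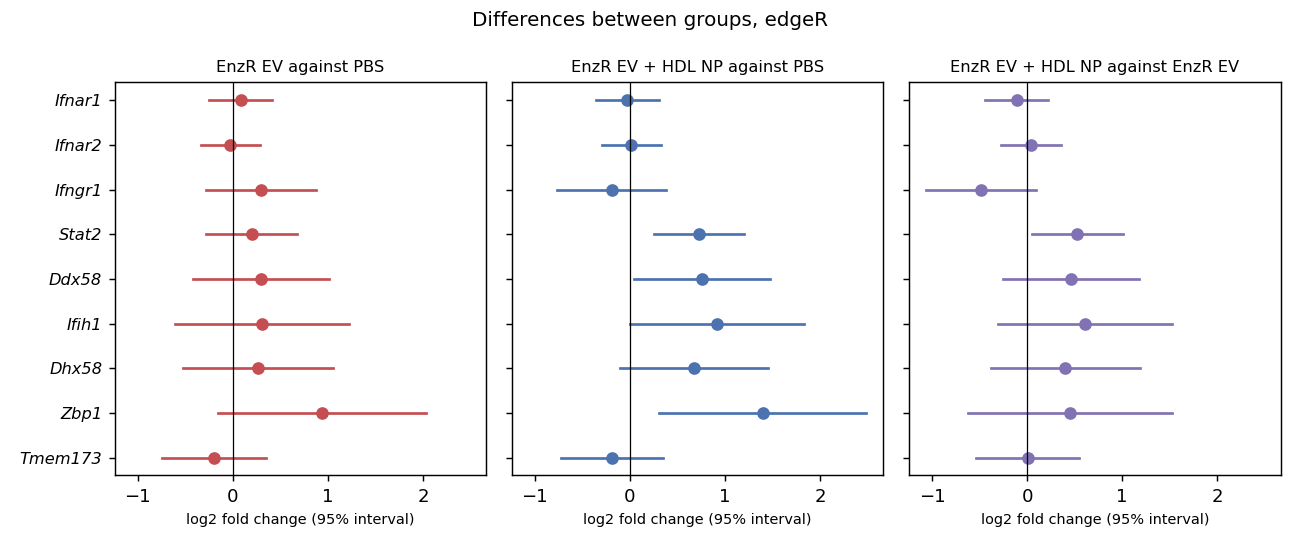
Log2 fold changes (horizontal axes) of the 9 members in the edgeR fit, with bars for the 95% interval, in each of 3 comparisons. The intervals of Stat2, Ddx58 and Zbp1 lie above 0 for EnzR EV + HDL NP against PBS before adjustment over all genes, and that of Stat2 also for EnzR EV + HDL NP against EnzR EV.

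The first comparison asked what the vesicles alone did. EnzR EV against PBS gave 0 of 9 members called at an adjusted p under 0.05, where edgeR called 0% of all genes and DESeq2 0.0876%, none of them a member. With the replicate number as a block edgeR called 1 gene, no member. At an unadjusted p under 0.05, 0 members were higher in the edgeR test, against 1.55% of all genes, and 0 members had all EnzR EV mice above all PBS mice, against 3.43% of all genes. The median log2 fold change was 0.27 over the members and -0.03 over all genes tested. Below 0 here lay 7 of 8 neutrophil markers (median -0.19), 7 of 7 monocyte (-0.37) and 6 of 7 macrophage (-0.71). So did 6 of 6 B lineage (-0.83), 5 of 5 T and NK (-0.48) and 4 of 5 erythroid markers (-0.80). Of the platelet markers 4 of 5 lay below 0 (-0.33), and of the plasmacytoid dendritic ones 3 of 5 (-0.19). The part of these markers in the result was not tested. Within the EnzR EV group the 5 genes Stat2, Ddx58, Ifih1, Dhx58 and Zbp1 took 1 order: highest in replicate 2, middle in replicate 3 and lowest in replicate 1. Without replicate 1 the log2 fold changes of the 5 lay between 0.37 (Stat2) and 1.30 (Zbp1). Without replicate 2 they lay between -0.23 (Ifih1) and 0.07 (Zbp1), so a single mouse decided their direction for Ddx58, Ifih1 and Dhx58. Depth and the summed neutrophil, monocyte and T and NK markers took the same order over these mice, and Rn45s and the summed erythroid and plasmacytoid dendritic markers the opposite one, while the B cell, macrophage and platelet sums took neither. Their part in it was not tested.

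**Figure D3:**
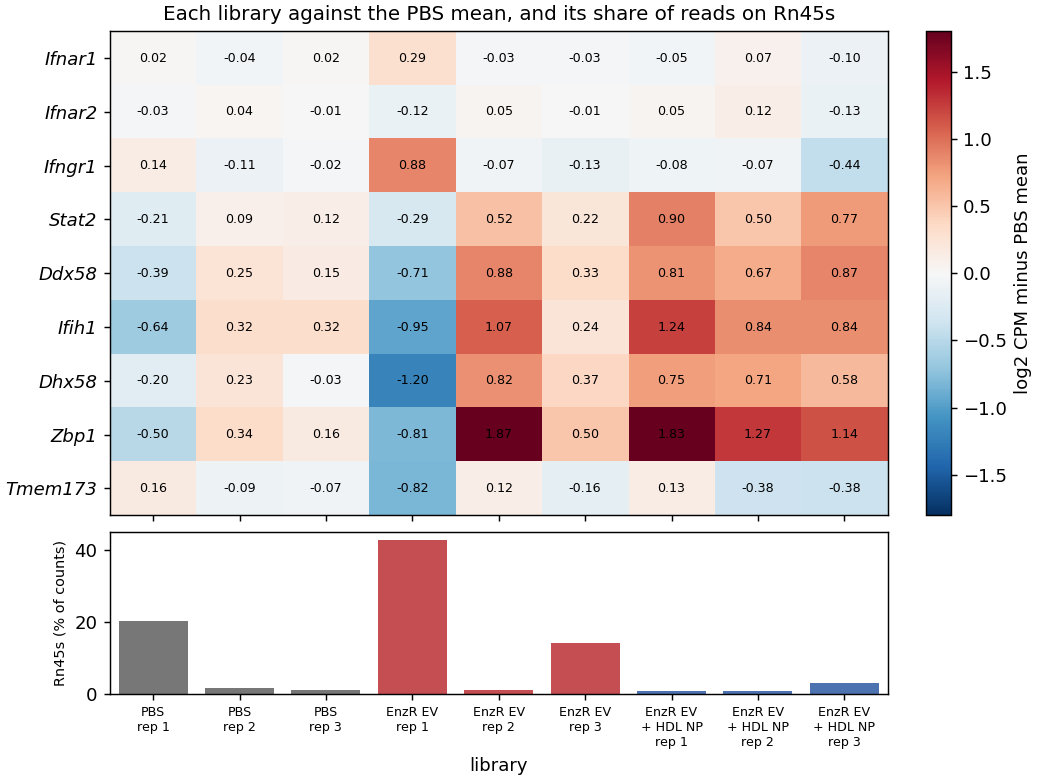
Upper panel: log2 CPM of each member in each library minus the mean of the 3 PBS libraries (colour scale and printed values). Lower panel: percent of each library's counts on Rn45s; EnzR EV replicate 1, at 42.7%, is the library in which the 5 inducible genes and Tmem173 are lowest and Ifngr1 is highest.

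The second comparison set the combined treatment against vehicle. EnzR EV + HDL NP against PBS gave 0 of 9 members called by edgeR, which called 0% of all genes, and 0 by DESeq2, which called 0.0637%. The smallest DESeq2 adjusted p of a member was 0.597, for Stat2. At an unadjusted p under 0.05 in the edgeR test, 3 of 9 members were higher (Stat2, Ddx58 and Zbp1), against 1.02% of all genes. All 3 mice given HDL NPs lay above all 3 PBS mice in 5 of 9 members, against 6.96% of all genes. With 3 mice against 3 an exact two-sided permutation test cannot go below 0.10, and groups that do not overlap fix it at that value. The median log2 fold change was 0.67 over the members and -0.01 over all genes. For each of the 5 genes the lowest PBS mouse was replicate 1, with 20.3% of its counts on Rn45s, against at most 2.87% in the mice given HDL NPs. Without that mouse the log2 fold changes were 0.63 for Stat2, 0.59 for Ddx58, 0.66 for Ifih1, 0.58 for Dhx58 and 1.20 for Zbp1, each smaller than with it. Marker genes had these values in the same comparison. A log2 fold change below 0 was found in 7 of 7 macrophage markers (median -0.56), 5 of 5 erythroid (-0.70) and 5 of 5 platelet (-0.64). So it was in 6 of 6 B lineage (-0.56) and 5 of 5 T and NK markers (-0.31). Below 0 also lay 5 of 7 monocyte (-0.05) and 3 of 5 plasmacytoid dendritic markers (-0.10). Of the neutrophil markers 7 of 8 lay above 0 (0.24). The summed macrophage level lay between 587 and 1108 CPM in PBS and between 563 and 742 with HDL NPs. Their part in the result was not tested.

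The third comparison asked whether HDL NPs altered the response to the vesicles. EnzR EV + HDL NP against EnzR EV gave 0 of 9 members called, where edgeR called 0% of all genes and DESeq2 0.00797%. Stat2 had a log2 fold change of 0.53 (SE 0.216, 95% interval 0.05 to 1.00, edgeR adjusted p = 0.461) and was the 1 member higher at an unadjusted p under 0.05, against 3.58% of all genes. No member lay wholly higher, or wholly lower, against 8.99% of all genes for the higher direction and 8.58% for the lower. The other inducible genes differed by 0.40 (Dhx58), 0.45 (Zbp1), 0.46 (Ddx58) and 0.61 (Ifih1) on the log2 scale, each with an interval that includes 0. In the same comparison all 8 neutrophil markers (median 0.36) and all 7 monocyte markers (median 0.38) had a log2 fold change above 0. So had 5 of 5 T and NK (0.20), 5 of 7 macrophage (0.25), 4 of 5 erythroid (0.14) and 3 of 5 platelet markers (0.17). Above 0 also lay 3 of 6 B lineage (median 0.08) and 2 of 5 plasmacytoid dendritic markers (median -0.25). The part of these markers in the result was not tested. Without EnzR EV replicate 1 these differences were 0.35 for Stat2, 0.15 for Ddx58, 0.26 for Ifih1, 0.06 for Dhx58 and 0.09 for Zbp1, and without EnzR EV replicate 2 they were 0.70, 0.84, 1.15, 0.78 and 1.32 (edgeR adjusted p from 0.0841 to 0.150). The size of this comparison thus depended on which EnzR EV mouse was included.

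Both EV groups against PBS, 6 mice against 3, gave 0 of 9 members called. EdgeR called 0% of all genes in this comparison and DESeq2 0.112%. Stat2 (log2 fold change 0.46, 95% interval 0.04 to 0.88, edgeR adjusted p = 1.00) and Zbp1 (1.17, 0.18 to 2.15, edgeR adjusted p = 1.00) were the 2 members higher at an unadjusted p under 0.05, against 0.765% of all genes. Over 21 alternatives, left-out libraries among them, Stat2 ranged from 0.37 to 0.55 and Zbp1 from 0.73 to 1.35 in this comparison. In no member did the 6 mice given vesicles all lie above the PBS mice, against 0.701% of all genes. Below 0 in this comparison lay 7 of 7 monocyte markers (median log2 fold change -0.24), 6 of 7 macrophage (-0.51) and 6 of 6 B lineage (-0.71). So did 5 of 5 T and NK (-0.38), 5 of 5 erythroid (-0.74) and 5 of 5 platelet markers (-0.47). Of the plasmacytoid dendritic markers 3 of 5 lay below 0 (-0.10), and of the neutrophil ones 4 of 8. The part of these markers in the result was not tested. The comparisons share their PBS or EnzR EV mice and are not independent of one another.

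The rest of the pathway was described with lists written from general knowledge, but with earlier results of these data known. The shares given for the lists therefore describe them and are not independent support. They held 60 further genes of interferon signalling and nucleic acid sensing, of which 49 passed the filter. None of the 49 was called by edgeR or DESeq2 in any comparison. In EnzR EV + HDL NP against PBS, 37 of the 49 had a log2 fold change above 0 and 12 below, with a median of 0.18. In 16 of the 49, all mice given HDL NPs lay above all PBS mice, against 6.96% of all genes, and in 1 gene below (Rnf135, named after its values were seen), against 6.21% of all genes. In EnzR EV against PBS 28 were above 0 and 21 below, with 5 wholly higher, against 3.43% of all genes, and 1 wholly lower, against 4.52%.

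Irf9, the DNA-binding subunit of ISGF3, had a like pattern to Stat2. Irf9 stood at 57.6, 89.0 and 82.3 CPM in the PBS mice, at 43.3, 129 and 87.4 in the EnzR EV mice and at 141, 121 and 105 in the EnzR EV + HDL NP mice. The mice given HDL NPs lay above every PBS mouse, with a log2 fold change of 0.68 (95% interval -0.04 to 1.40), while the kinase Jak1 overlapped (0.22, -0.28 to 0.72). The other chain of the type II receptor, Ifngr2, and the shared chain Il10rb overlapped in this comparison as the receptor members did, at -0.15 and -0.01. Of the other STATs, Stat4 was the 1 of 5 that lay wholly higher in this comparison, against 6.96% of all genes, and its interval was wide (log2 fold change 0.45, -0.73 to 1.64).

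Among the 16 genes of RNA sensing, 8 lay wholly higher in the group given HDL NPs than in PBS, the 3 members included, against 6.96% of all genes, and Rnf135, a ubiquitin ligase that activates RIG-I, lay wholly lower (log2 fold change -0.35, 95% interval -0.82 to 0.12). Eif2ak2, the kinase PKR that halts translation on binding double-stranded RNA, stood at 53.3, 63.2 and 61.7 CPM in the PBS mice, 53.8, 93.9 and 63.5 in the EnzR EV mice and 114, 76.7 and 98.1 in the EnzR EV + HDL NP mice. Its log2 fold change was 0.70 (95% interval 0.19 to 1.20), beside 0.76 for the helicase Ddx60 (0.14 to 1.38) and 0.85 for the transcription factor Irf7 (-0.03 to 1.74), each with an edgeR adjusted p of 1.00. Of the 14 genes of DNA and Z-nucleic acid sensing, 8 lay wholly higher, the member Zbp1 included, again beside 6.96% of all genes. They included Aim2, the DNA sensor of an inflammasome, at 0.40 (0.02 to 0.79), and its relatives Ifi203 at 0.64 (-0.01 to 1.28) and Mndal at 0.82 (0.04 to 1.60). Usp18, which binds Ifnar2 and dampens its signal, was the 1 of 9 inhibitors that lay wholly higher, against 6.96% of all genes. Its log2 fold change was 1.02 (0.07 to 1.96), while Socs3, an inhibitor of JAK signalling, overlapped at 0.14 (-0.43 to 0.72). In EnzR EV against PBS Socs3 lay wholly higher, at 0.69 (0.10 to 1.27, edgeR adjusted p = 0.928), and Usp18 overlapped at 0.80. Socs3 was the 1 of the 49 genes higher at an unadjusted p under 0.05 there, a share near the 1.55% of all genes.

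**Figure D4:**
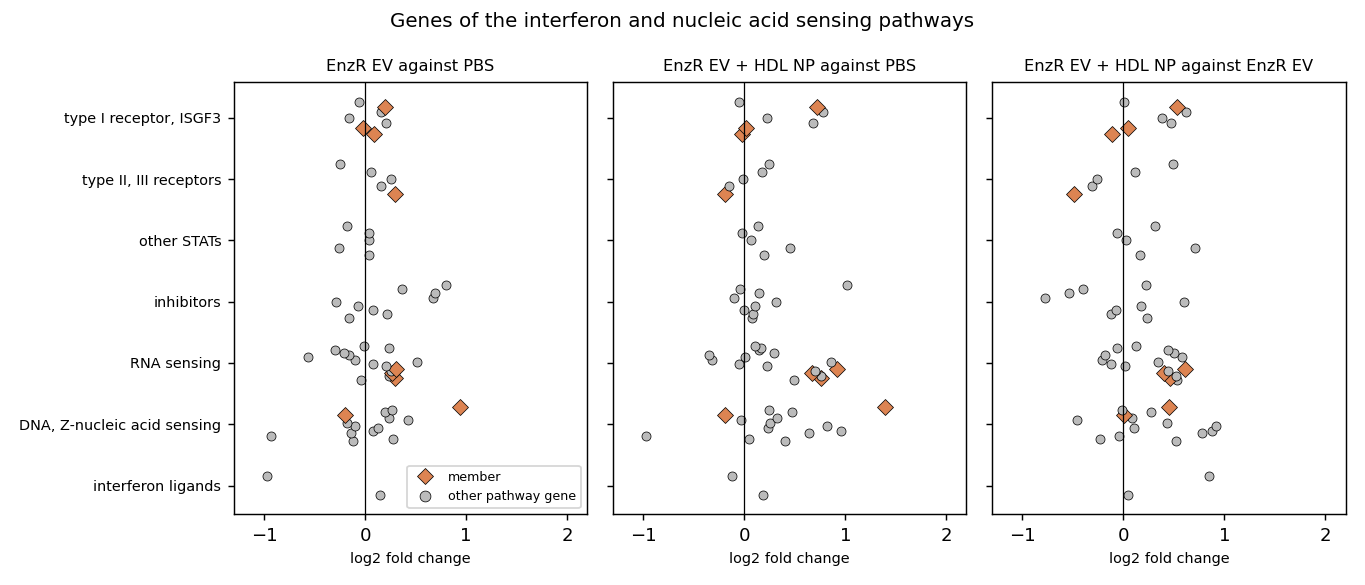
Log2 fold changes (horizontal axes) of the 58 tested pathway genes, in rows by list, in 3 comparisons, with members as diamonds and the other genes as circles. In EnzR EV + HDL NP against PBS most points of the sensing lists lie to the right of 0, while the receptor members lie between -0.19 and 0.02.

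Most interferon genes were at or near the limit of detection. Ifnb1 had 1 count over all 9 libraries, and the 6 Ifna genes, Ifnab and Ifne had 0. These counts do not show that the RNA was absent, and a loss of reads that match several similar genes was not tested. The limit that a count of 0 allows, 3 counts, corresponds to between 0.160 CPM in the deepest library and 1.65 CPM in the shallowest, for counting error only. Ifnk, a type I interferon, and Ifng, the type II interferon, passed the filter, with 135 and 71 counts in all. Ifnk stood at 0.704, 1.73 and 1.26 CPM in PBS, at 0, 1.01 and 0.355 in EnzR EV, and at 1.24, 0.656 and 1.68 in EnzR EV + HDL NP, and the groups overlapped. Of the markers listed for plasmacytoid dendritic cells, a known source of type I interferon, Siglech lay between 0.210 and 2.82 CPM and Ccr9 between 0.236 and 3.84 over all libraries. The sum of that list, between 87.3 and 191 CPM, came mostly from Irf8 and Tcf4, which other cells also express.

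Across the 9 libraries the log2 CPM of the 5 inducible members moved together, with Pearson's r between 0.852 (Stat2 and Dhx58) and 0.980 (Ddx58 and Ifih1), while Ddx58 and Ifngr1 had an r of -0.819. Genes among the 3 most like each member over the same 9 libraries were Mnda, Eif2ak2 and D730005E14Rik for Stat2 (r from 0.968 to 0.981), Ifit3 and Usp18 for Ddx58 (0.987 and 0.982), Parp9 and Ifit3 for Ifih1 (both 0.991), Pcyt1a, I830012O16Rik and Rbm43 for Dhx58 (0.980 to 0.993) and Ifit3, Irf7 and Dtx3l for Zbp1 (0.980 to 0.987). For the receptors and Tmem173 they were other genes, led by Gm505 for Ifnar1 (0.982), Trappc3 for Ifnar2 (0.946), Dnajc25 for Ifngr1 (0.988) and Rpl22 for Tmem173 (0.971). These values describe 9 points that share depth, group and the outlying EnzR EV replicate 1, and were picked as the highest of all genes tested.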

How the data were processed

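RNA was sequenced from CD11b+ bone marrow cells (EasySep positive selection) with the Illumina TruSeq Stranded Total RNA kit after rRNA depletion. The labels name Trizol for RNA isolation and the methods of the study RNeasy. For every library the authors deposited unnormalized read counts by gene, made with cutadapt 1.13, STAR and HTSeq 0.6.1p1 on mm10, by the submitters' processing notes; the strand setting is not given in the sources used here. Groups came from the sample labels, and the libraries of a group are separate mice.

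The fit used edgeR 4.0.16 under R 4.3.3 (TMM scaling, the default filter on low counts, a robust quasi-likelihood fit to all 9 libraries, Benjamini-Hochberg adjustment over 12553 genes, threshold 0.05) after a test on simulated data. For log2 CPM a prior count of 2 was added. DESeq2 1.42.0 and limma 3.58.1 were alternatives, beside other scalings, filters and left-out libraries. The members and lists were chosen with earlier results of these data known. Named were all members, up to 3 other genes per list with the smallest unadjusted edgeR p over the comparisons, and the 3 genes most correlated with each member, save for 1 gene of these lists that is not reported here. Positions are of GENCODE M21 on GRCm38, the assembly of mm10. PBS replicates 2 and 3, the most alike pair of a group, were not duplicates (chi-square per gene 4.65). Same-numbered libraries of the PBS and EnzR EV groups had correlated deviations (r = 0.473, 0.492 and 0.131 for replicates 1, 2 and 3). Different-numbered ones did too: r was 0.429 for PBS replicate 3 with EnzR EV replicate 2, and 0.156 for PBS replicate 2 with EnzR EV replicate 3. Different-numbered pairs that held a replicate 1 lay between -0.533 and -0.166. A pairing by number is thus not shown by these values, and the labels do not give one. Without molecular identifiers, a floor reflects counting error alone.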

Additional observations from a re-analysis of the deposited data

How the results depend on the processing

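No member was called under any alternative in any comparison. In EnzR EV + HDL NP against PBS the 5 inducible members kept their direction in all 19 alternatives: Stat2 from 0.59 to 0.82, Ddx58 from 0.59 to 0.89, Ifih1 from 0.66 to 1.07, Dhx58 from 0.58 to 0.80 and Zbp1 from 1.15 to 1.57 on the log2 scale. Their smallest adjusted p was 0.0902, for Zbp1 with limma's sample quality weights. Depth limited EnzR EV replicate 1 most, with 16 counts for Zbp1.

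Counts of genes called, 0 by edgeR in every comparison, moved as follows. DESeq2 called 11 genes in EnzR EV against PBS, 8 in EnzR EV + HDL NP against PBS, 1 in EnzR EV + HDL NP against EnzR EV and 14 in both EV groups against PBS, and limma voom with sample quality weights called 1990, 10, 653 and 86. With the replicate block, edgeR called 1 gene in EnzR EV against PBS and 2 in both EV groups against PBS, none a member, and the block changed no other call. The numbers gave no clear pairing in the other comparisons either. The same-numbered correlations were 0.061, 0.293 and -0.175 between PBS and EnzR EV + HDL NP. Between EnzR EV and EnzR EV + HDL NP they were -0.036, 0.209 and 0.121. Without PBS replicate 1 and EnzR EV replicate 1 together, 5, 1 and 5 genes were called in EnzR EV against PBS, EnzR EV + HDL NP against EnzR EV and both EV groups against PBS. With no filter on low counts 1 gene was called in EnzR EV against PBS, and with only the libraries compared 1 in EnzR EV + HDL NP against EnzR EV. Leaving out single libraries gave 0 to 2 genes in EnzR EV against PBS (2 without PBS replicate 1) and 0 to 1 in both EV groups against PBS (1 without PBS replicate 1). The causes of these moves were not tested.

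The values that changed sign were mostly close to 0. Scaling by library size only moved the median of all genes to -0.18 in EnzR EV against PBS and to 0.24 in EnzR EV + HDL NP against EnzR EV; under it Ifnar1 became -0.12 in EnzR EV against PBS, 0.030 in EnzR EV + HDL NP against PBS, 0.15 in EnzR EV + HDL NP against EnzR EV and -0.043 in both EV groups against PBS, where Ifngr1 became -0.041. In EnzR EV against PBS, Ifnar2 became 0.0014 with DESeq2 and 0.0018 with only the libraries compared, and Ifih1 became -0.00016 with quality weights. With both libraries left out, Ifnar1 became -0.0072, Ifnar2 0.012, Ifngr1 -0.025 and Tmem173 0.079 there. In EnzR EV + HDL NP against EnzR EV, Tmem173 became -0.013 with DESeq2, -0.080 with limma voom, -0.097 with quality weights, -0.0054 with RLE size factors, -0.00077 with upper quartile scaling, -0.013 with the replicate block, -0.0081 with only the libraries compared, -0.0010 without Rn45s, hemoglobin and mitochondrial genes, and -0.19 with both libraries left out, where Ifnar2 became -0.0095. In both EV groups against PBS, Ifnar2 became 0.012 with DESeq2, 0.0096 with RLE, 0.0019 with upper quartile scaling, 0.0039 without Rn45s, hemoglobin and mitochondrial genes and 0.0073 with both libraries left out. Ifngr1 became -0.0019 with limma voom, -0.056 with quality weights and -0.072 with both libraries left out, and Ifnar1 -0.011 with both left out.

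With single replicates left out, EnzR EV against PBS ranged from -0.022 to 0.16 for Ifnar1, -0.044 to 0.023 for Ifnar2, -0.10 to 0.48 for Ifngr1, -0.081 to 0.61 for Ddx58, -0.23 to 0.65 for Ifih1 and -0.11 to 0.60 for Dhx58. EnzR EV + HDL NP against PBS ranged from -0.083 to 0.013 for Ifnar1 and -0.044 to 0.084 for Ifnar2. EnzR EV + HDL NP against EnzR EV ranged from -0.037 to 0.091 for Ifnar2 and -0.19 to 0.20 for Tmem173. Both EV groups against PBS ranged from -0.025 to 0.069 for Ifnar1, -0.025 to 0.038 for Ifnar2 and -0.15 to 0.15 for Ifngr1. The causes were not tested.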
